A study of Homo sapiens with 6 samples.

Results

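The genes described here serve protein import into mitochondria and protein quality control inside them: the translocases of the outer and inner membrane, the small chaperones of the intermembrane space, the matrix chaperones, the mitochondrial proteases and the prohibitins. They were chosen by symbol from a list of 35, and all 35 were found among the 26364 genes of the authors' deposited table, each with an adjusted p. The RNA came from REH, an established human cell line derived from acute lymphoblastic leukaemia of B-cell precursors, and no gene alteration was stated for either group. Control cells received DMSO, the solvent, for 6 h, and treated cells received S3I-201, a compound designed to inhibit STAT3, at 50 µM for 6 h. Each of the 2 groups held 3 RNA-seq libraries from independent experiments. A single cell line, dose and time was sampled, which limits what the groups stand for.

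Nearly all mitochondrial proteins are encoded in the nucleus and made in the cytosol. Precursors pass the outer membrane through the TOM complex. Hydrophobic ones are then escorted by small TIM chaperones to the TIM22 complex, while those with a presequence enter the TIM23 channel and are pulled into the matrix by the motor built on the chaperone HSPA9. In the matrix HSPD1 and HSPE1 fold the newcomers, and proteases such as LONP1 and the CLPX-CLPP pair remove what fails to fold. Damage to this system is known to raise transcription of mitochondrial chaperones and proteases in many cell types, a programme called the mitochondrial unfolded protein response.

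For each gene the authors' deposited table gives 1 mean normalized count over the libraries, 1 log2 fold change and its p-value before and after adjustment, so no value per library can be shown. It does not state which group is the reference. Its name puts DMSO first against S3I-201, which is often read as DMSO over S3I-201, while the default of the authors' tool DESeq2 takes DMSO, first in the alphabet, as the reference. By that default positive fold changes were taken as higher with S3I-201, and if the table instead gives DMSO over S3I-201 every direction given here turns. The deposited fold changes appear shrunken towards 0, and each 95% interval was computed from the deposited fold change and p-value, so it belongs to that scale. Single-read steps in the means of rare genes gave size factors from 0.573 to 1.27, which scale to about 6600000 to 14500000 counts per library. By the sign of the fold changes at these steps, 0.573, 1.19 and 1.27 belonged to the group read here as S3I-201. The factors 0.948, 1.02 and 1.24 belonged to the group read as DMSO. Of 9 marker genes of B-precursor cells 7 had a mean above 100, while CD9 had 26.1 and VPREB1 was listed at 0. Of 10 markers of other cell types only MPO, at 978, exceeded 100.

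The 35 genes were well expressed in REH cells. Their mean normalized counts in the authors' deposited table ran from 159 for TIMM8A to 11291 for HSPA9, with a median of 918 against 410 over the 11912 genes with an adjusted p. Per kilobase of transcript, the scale on which genes can be set against each other, their median was 664 against 169 over the 10755 tested genes with a known length. The prohibitin PHB2 stood highest at 3333 counts per kilobase, and the matrix HSP70 HSPA9 at 2990, the chaperonin HSPD1 at 2832 and the small TOM subunit TOMM6 at 2752 came next. TIMM8A at 111 and TIMM22, the core of the carrier translocase, at 141 were the only members below the median of tested genes. Within the matrix chaperones the spread was wide, from 225 counts per kilobase for GRPEL1 to 2990 for HSPA9. GRPEL1 and GRPEL2, the nucleotide exchange factors of HSPA9, had similar mean normalized counts of 626 and 668. Their 225 and 664 counts per kilobase differ through the transcript lengths used, 2775 and 1006 bases.

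**Figure D1:**
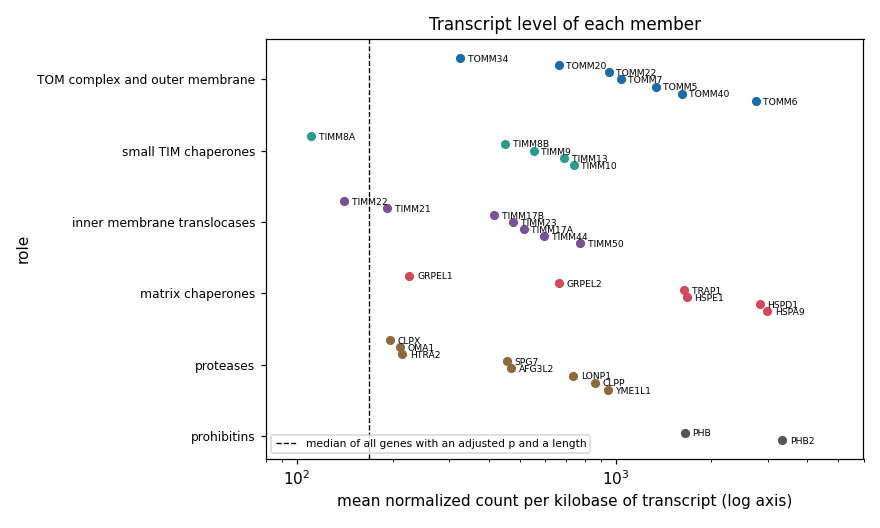
Mean normalized count per kilobase of transcript (log axis) for each of the 35 genes, by role; 1 point is 1 gene pooled over 6 libraries, and the dashed line is the median of tested genes, 169. HSPA9, HSPD1, TOMM6 and PHB2 lie to the far right, and TIMM8A and TIMM22 lie left of the line.

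Treatment with S3I-201 left most of this machinery without a detectable change in transcript level, while 2 genes, TIMM44 and HSPA9, were higher. TIMM44, which tethers the motor to the TIM23 channel, was 1.47-fold higher in the authors' deposited table (log2 fold change 0.55, 95% interval 0.30 to 0.81, adjusted p = 9.01e-04). HSPA9, the HSP70 that drives the motor, was 1.36-fold higher there (0.44, interval 0.17 to 0.71, adjusted p = 0.0279). The other 33 genes did not pass an adjusted p of 0.05, and 0 were lower, by the authors' DESeq2 adjustment. By unadjusted p-values under 0.05 in the authors' deposited table, 6 genes stood out, 3 with positive fold changes (against 9.11% of all tested genes) and 3 with negative ones (against 6.88%).

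These numbers of calls were close to those of genes at large. Over all genes with an adjusted p, 5.90% passed in either direction, 4.45% as higher and 1.45% as lower, against 5.71% of the 35. Among the 8481 genes within the same range of mean counts 6.38% passed. At an unadjusted p under 0.05 the share was 16.0% over all genes and 17.1% of the 35, and within that range of mean counts it was also 17.1%. The count of calls is therefore no result about the group.

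All 35 intervals lay inside a change of 1 on the log2 scale in either direction, the outermost bounds being -0.83 for TIMM8A and 0.88 for GRPEL2. The same held for 11260 of all 11912 tested genes and for 8156 of the 8481 within the same range of means. In the authors' deposited table the median log2 fold change of the 35 was -0.12, against -0.02 over all tested genes and -0.04 over those within the same range of means. Negative values were found in 27 of the 35, or 77.1%, against 53.6% of all tested genes and 56.8% in that range. These are descriptions, since the genes were measured in the same libraries and are not replicates. Normalized counts are relative to the rest of each library. In bulk RNA a transcript held by fewer of the cells and less of it in each cell cannot be told apart.

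**Figure D2:**
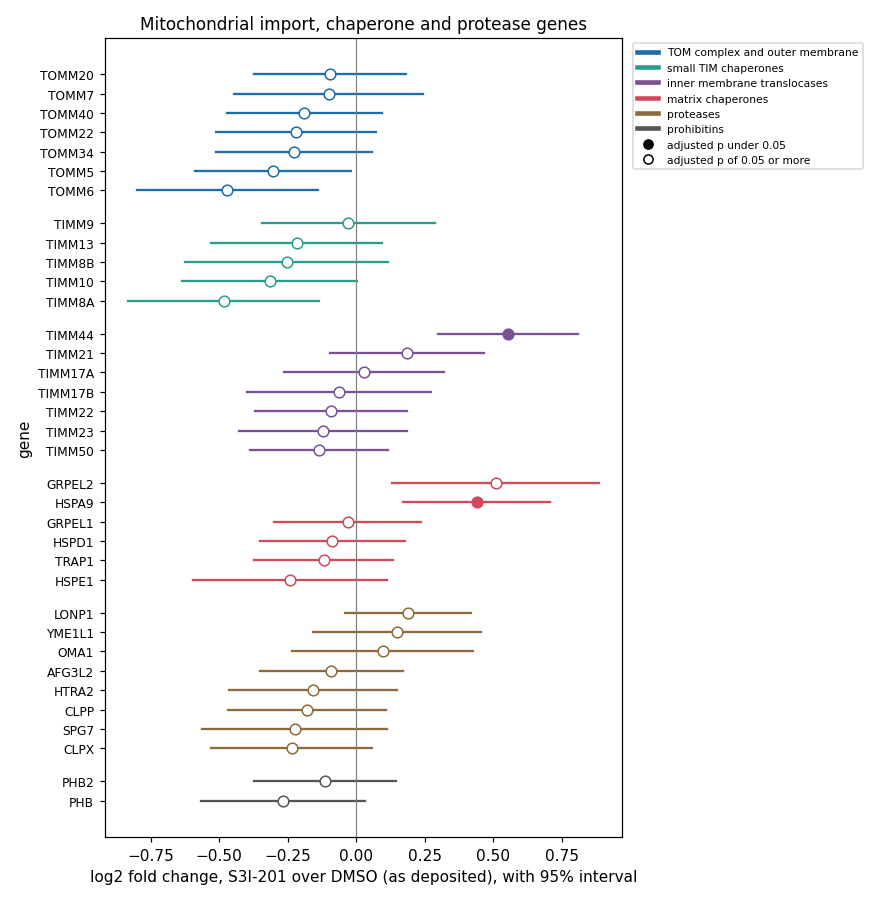
Log2 fold change of each gene as deposited (S3I-201 over DMSO, points) with its 95% interval (lines), by role; filled points have an adjusted p under 0.05. TIMM44 at 0.55 and HSPA9 at 0.44 are filled, and all genes of the TOM, small TIM and prohibitin groups lie left of 0.

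The TOM complex is the entry gate of the outer membrane. Of the 7 genes grouped with it, 0 passed by the adjusted p of the authors' DESeq2 run, against 5.90% of all tested genes. An unadjusted p under 0.05 was found for 2, against 16.0%. All 7 log2 fold changes in the authors' deposited table were negative, against 53.6% of all tested genes, with a median of -0.22. TOMM6, a small subunit that steadies the complex, had the lowest, -0.47 (interval -0.80 to -0.14, adjusted p = 0.0795). TOMM5, another small subunit, had -0.30 in the authors' deposited table (interval -0.59 to -0.02, adjusted p = 0.261). The other parts were nearer to 0: the channel TOMM40 had -0.19, the central receptor TOMM22 -0.22, the presequence receptor TOMM20 -0.10 and the small TOMM7 also -0.10 in the authors' deposited table. TOMM34, a cytosolic cochaperone of precursors rather than a channel part, had -0.23 there. Annotated exons of TOMM6 overlap those of USP49 on the opposite strand. In the authors' deposited table USP49 had a mean normalized count of 1336 against 1695 for TOMM6 and 0.01 as its log2 fold change, and these libraries do not mark the strand.

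The small TIM chaperones form rings that carry hydrophobic precursors across the intermembrane space. Of the 5 genes 0 passed by the adjusted p of the authors' DESeq2 run, against 5.90% of all tested genes. An unadjusted p under 0.05 was found for 1, against 16.0%. The 5 log2 fold changes in the authors' deposited table were all negative, against 53.6% of all tested genes, with a median of -0.25. TIMM8A, the partner of TIMM13 that is mutated in a deafness-dystonia syndrome, had -0.48 (interval -0.83 to -0.14, adjusted p = 0.0911) and was also the least abundant of the 35. TIMM10 had -0.32 in the authors' deposited table (interval -0.64 to 0.00, adjusted p = 0.320). Its ring partner TIMM9 had -0.03 there (interval -0.35 to 0.29), so the pair's intervals overlapped widely. TIMM8B at -0.25 and TIMM13 at -0.22 in the authors' deposited table lay between them. Annotated exons of TIMM13 (mean 900) overlap those of LMNB2 on the same strand, whose mean was 4442 and log2 fold change -0.29 there. On the opposite strand exons of TIMM8B (mean 366) overlap those of SDHD, with a mean of 750 and 0.03. Exons of TIMM9 (mean 331) overlap those of KIAA0586, with a mean of 655 and -0.02.

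Among the 7 inner membrane translocase genes TIMM44 was higher and the other 6 did not pass, while 4.45% of all tested genes were called higher. The channel subunit TIMM23 had in the authors' deposited table -0.12 on the log2 scale (interval -0.43 to 0.19), and the receptor TIMM50 had -0.14 (interval -0.39 to 0.12). The channel partners TIMM17A and TIMM17B had 0.03 and -0.06 there. TIMM21, which links the channel to the TOM complex, had 0.18 (adjusted p = 0.610), and TIMM22 had -0.09 in the authors' deposited table. The interval of TIMM44, from 0.30 upwards, did not overlap those of TIMM23, TIMM50, TIMM22 or TIMM17B and did overlap those of TIMM17A (-0.27 to 0.32) and TIMM21 (-0.10 to 0.46). The difference between genes was not tested because their errors share libraries. Reads of TIMM23 can be shared with its near-identical copy TIMM23B, whose mean was 49.5 against 582 for TIMM23 in the authors' deposited table, so both values are uncertain.

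Of the 6 matrix chaperone genes HSPA9 was higher and 5 did not pass, while 4.45% of all tested genes were called higher. GRPEL2, an exchange factor of HSPA9, had a positive value of 0.51 (interval 0.13 to 0.88) in the authors' deposited table that did not pass (adjusted p = 0.105). GRPEL1, the paralog with the same task of releasing ADP from HSPA9, had -0.03 there (interval -0.30 to 0.24, adjusted p = 0.955). The cage genes did not pass: HSPD1 had -0.09 (interval -0.35 to 0.18) and its lid HSPE1 -0.24 (interval -0.60 to 0.11) in the authors' deposited table. TRAP1, the mitochondrial HSP90, had -0.12 there (interval -0.37 to 0.14). HSPD1 has 17 and HSPE1 26 named pseudogenes in GENCODE, against 1 for HSPA9 and 0 for TIMM44, and reads of HSPD1 and HSPE1 can be shared with such copies. Annotated exons of TIMM44 overlap those of AC010336.5 on the opposite strand, and those of HSPD1 and HSPE1 overlap each other. HSPA9 exons overlap SNORD63 and RF00154 on the same strand.

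**Figure D3:**
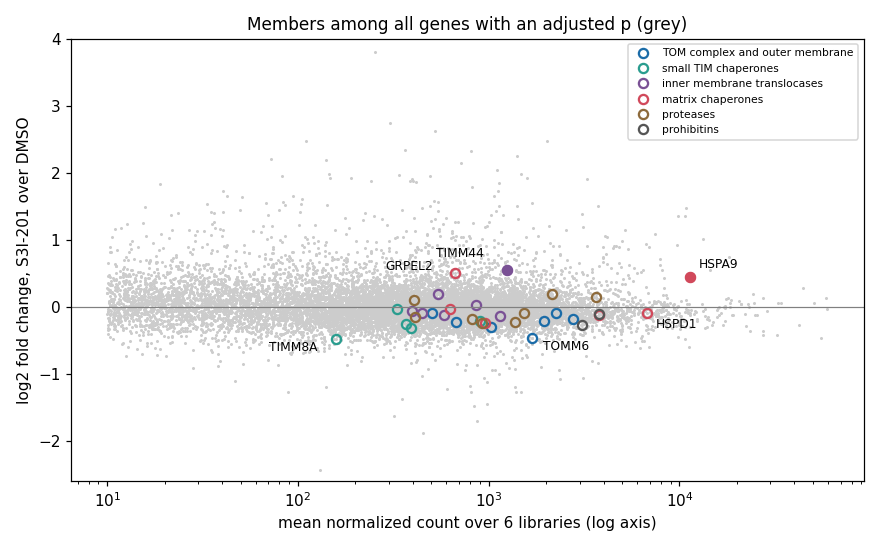
Log2 fold change (S3I-201 over DMSO) against mean normalized count (log axis) for all 11912 genes with an adjusted p (grey) and the 35 genes by role; filled circles have an adjusted p under 0.05. HSPA9, at a mean of 11291, and TIMM44, at 1241, lie above 0, and most of the others lie just below 0 at means from 159 to 6731.

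The proteases showed no call. Of 8 genes, 0 passed by the adjusted p of the authors' DESeq2 run and 0 had an unadjusted value under 0.05. Over all tested genes these shares were 5.90% and 16.0%. LONP1, the main matrix protease and a usual marker of mitochondrial protein stress, had 0.19 (interval -0.04 to 0.42, adjusted p = 0.476) in the authors' deposited table. CLPP, a matrix peptidase, had -0.18 and CLPX, its unfoldase, -0.24 there (adjusted p = 0.639 and 0.493). Of the proteases anchored in the inner membrane, YME1L1 had 0.15, AFG3L2 -0.09, its partner SPG7 -0.22 and OMA1, which is activated by loss of membrane potential, 0.10 in the authors' deposited table. HTRA2, a protease of the intermembrane space that promotes apoptosis once released, had -0.16 there. Exons of LONP1 overlap those of the ribosomal protein gene RPL36 on the opposite strand, whose mean was 4493 against 2148 for LONP1 in the authors' deposited table. Both prohibitins, scaffolds of the inner membrane that surround the AFG3L2 protease, did not pass, with -0.27 for PHB (adjusted p = 0.407) and -0.12 for PHB2 (adjusted p = 0.770) in the authors' deposited table. PHB has 21 named pseudogenes.

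The 2 higher genes lie far apart in the genome. TIMM44 spans chromosome 19 from 7926718 to 7943920 on the minus strand, and HSPA9 chromosome 5 from 138553756 to 138575724, also on the minus strand (hg38, GENCODE release 29, whole gene). HSPD1 and HSPE1 by contrast sit head to head on chromosome 2, with starts 105 bases apart in RefSeq, and neither passed. To show what the DNA around the starts of such genes holds, the 250 bases before each RefSeq gene start (GRCh38.p14) were searched on both strands, with 30 of the 35 genes matched to a window and TOMM5, TIMM8B, GRPEL1, CLPP and YME1L1 not matched. The motifs were TGATGNAA, the composite element of C/EBP and ATF factors, CACGTG, the E-box bound by MYC and USF, and a heat shock element of 2 copies of TTCNNGAA with NN between them. TGACGCAA, a C/EBP-ATF type of sequence, was added after the TIMM44 window had been read. GENCODE places the start of several of these genes further upstream than RefSeq does. Of the matches printed, the one at TIMM22 lies outside the gene's GENCODE bounds, and those at TIMM44, HSPA9, HSPE1 and HSPD1 lie inside theirs, so "upstream" holds for the RefSeq starts alone. The E-boxes of LONP1, beginning 212 and 49 bases before its RefSeq start, and of TOMM20, 168 bases before, are not printed. Matches are printed below from 5′ to 3′ on the gene's own strand, with the match in capitals.
TIMM44, chr19:7943679-7943708, minus strand: gaagcggcggaTGACGCAAccgggccgcgc
TIMM22, chr17:997036-997065, plus strand: cgaatctgccgTTGCATCAcagtggctagt
HSPA9, chr5:138575403-138575432, minus strand: cgcccctcacccCACGTGgttggaggtttc
HSPE1, chr2:197500345-197500374, plus strand: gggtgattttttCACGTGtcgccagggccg
HSPD1, chr2:197500345-197500374, minus strand: cggccctggcgaCACGTGaaaaaatcaccc
HSPD1, chr2:197500061-197500090, minus strand: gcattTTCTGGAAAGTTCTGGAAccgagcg

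The TIMM44 match begins 31 bases before the RefSeq gene start, and TGACGCAA was present upstream of 0.604% of the 27305 genes with a window. Among the 30 genes 1 held it, TIMM44. The sequence was added after that window had been read, so this match was known beforehand. TGATGNAA was found in 1 of the 30 genes, TIMM22, in reverse orientation, against 3.89% of all genes, and the deposited value of TIMM22 was the -0.09 given above. The E-box was found in 5 of the 30, namely HSPA9, HSPD1, HSPE1, LONP1 and TOMM20, against 7.73% of all genes. HSPD1 and HSPE1 share the same E-box, read from opposite strands. The 4 members other than HSPA9 that held it did not pass. The full heat shock element stood only upstream of the downstream start of HSPD1 among the 30 genes, against 0.0256% of all genes. It contains overlapping copies of the shorter repeats TTCNNGAA, present upstream of 8.12% of genes, and GAANNTTC, present upstream of 7.05%. A match is a description of letters and says nothing on binding.

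Other genes of mitochondrial import and quality control were set beside these. The authors' deposited table held 46 such genes, of which 42 had an adjusted p, and 3 were higher, 0 lower and 39 did not pass, against 5.90% called over all genes. All 3 belong to the proposed regulators of the mitochondrial stress response, and each also serves the general stress response that ATF4 controls. DDIT3, the factor CHOP, stood in the authors' deposited table at 1.86 on the log2 scale (interval 1.48 to 2.24, adjusted p = 4.05e-19). ATF5, which is held to sense failing import, had 1.35 (interval 1.03 to 1.67, adjusted p = 3.20e-14), and ATF4 had 0.89 there (interval 0.60 to 1.18, adjusted p = 2.54e-07). ESR1, the oestrogen receptor alpha, had 0.29 (interval -0.22 to 0.79, adjusted p = 0.686) in the authors' deposited table and did not pass. The other 4 regulators were closer to 0, with 0.01 for SIRT3, a mitochondrial deacetylase, -0.04 for EIF2AK1, the kinase HRI, -0.05 for DELE1 (listed as KIAA0141), which relays mitochondrial stress to it, and -0.02 for HSF1 in the authors' deposited table.

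The 34 tested genes of this list that are not regulators gave 0 calls by the adjusted p of the authors' DESeq2 run, and 1 had an unadjusted value under 0.05. That gene was TOMM40L, a paralog of the channel TOMM40, at -0.35 in the authors' deposited table (adjusted p = 0.296). Of all tested genes 5.90% were called and 16.0% had an unadjusted p under 0.05. Over all tested genes the median was -0.02 and 53.6% were negative, against -0.06 and 26 of the 34 here. Other parts of the HSPA9 motor were among them, and the J-proteins DNAJC19 and DNAJC15 had -0.08 (adjusted p = 0.896) and -0.10 (adjusted p = 0.852) in the authors' deposited table. DNAJA3, a J-protein that delivers clients to HSPA9, had 0.04 there (adjusted p = 0.943). Of the processing peptidase that removes presequences, PMPCA had -0.26 (adjusted p = 0.375) and PMPCB 0.01 (adjusted p = 0.982) in the authors' deposited table. MIPEP, an intermediate peptidase, had -0.28 there (adjusted p = 0.490). The positive calls among motor components were TIMM44 and HSPA9, a grouping made after their values were seen.

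**Figure D4:**
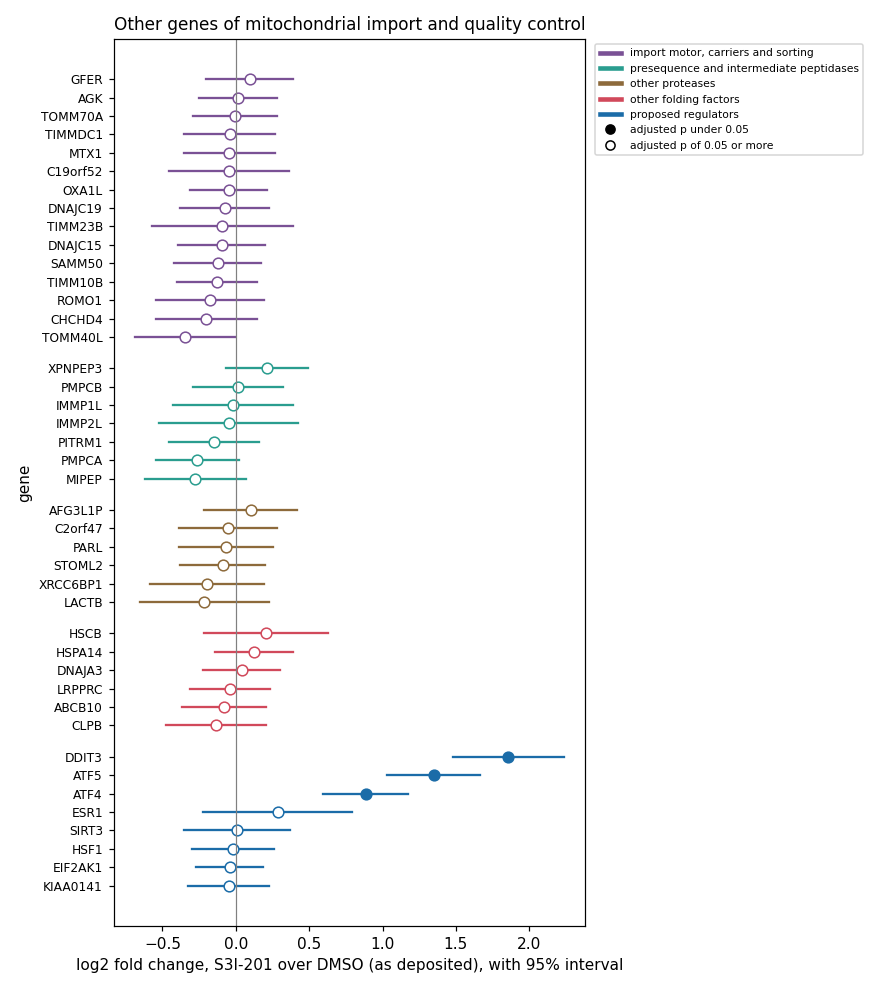
Log2 fold change as deposited (S3I-201 over DMSO, points) with 95% interval (lines) for the 42 related genes with an adjusted p, by group; filled points have an adjusted p under 0.05. DDIT3, ATF5 and ATF4 are filled at 1.86, 1.35 and 0.89, and the other 39 lie between -0.35 and 0.29.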

How the data were processed

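The deposited table was the only file used, and it held no column of single libraries. RNA was extracted with a column kit and libraries followed TruSeq RNA v2, per the labels' protocols, a method that does not mark strand. The submitters' processing notes name hg38, bcl2fastq 2.19, Trimmomatic, Bowtie2, Picard, featureCounts and DESeq2. Their roles, the annotation and the model were not stated in the labels or headers. The mean normalized count (a signal) is the authors' mean of counts over size factors, per the file headers, which carry DESeq2's column names. The log2 fold change is the authors' own, per the file headers. Each p-value, adjusted or not, likewise came from the authors. Adjusted p-values existed for 11912 genes, all with a mean of at least 10.0, and a new Benjamini-Hochberg adjustment came within 0.675% of them. Calls used an adjusted p of 0.05 as deposited. DMSO was taken as the reference because the tool by default uses the alphabetically first group, although the table's name, with DMSO first, can be read the other way, and no value in the table settles this.

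The implied standard error is the size of the deposited fold change over the normal quantile of its p-value. Genes seen in single reads had fold changes of only 0.033 to 0.042 in size, the sign of shrinkage. Size factors came from repeated single-read steps, which explained 100% of 2067 rare genes, and are not tied to replicate numbers. Transcript length was the median over GENCODE release 29 basic protein-coding transcripts. Of the 35 genes, 18 share exon sequence with a gene on the opposite strand. Alternatives were thresholds of 0.01 and 0.1, a minimum log2 fold of 0.5, adjustment over every gene that had a p-value, and subtraction of each bin's median fold change over 20 bins of abundance, tested on simulated data. All genes of the group were named, and of the related genes those that passed or had the 4 smallest adjusted p-values; further related genes were named after their values were seen. The genes, lists and roles were chosen with earlier results of these data known. Python 3.11.15, pandas 2.3.3 and scipy 1.17.1 were used.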

Additional observations from a re-analysis of the deposited data

How the results depend on the processing

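TIMM44 and HSPA9 were called in all settings tried except that HSPA9 was lost at stricter limits: of the 35 genes 1 was called at an adjusted p of 0.01, 1 with a log2 fold change of at least 0.5, and 4 at 0.1, where TOMM6 and TIMM8A joined with negative values. Adjustment over every gene that had a p-value and removal of the abundance trend each left 2 calls and changed the call of 0 of the 35. With these settings the adjusted p was 0.00128 and 2.56e-04 for TIMM44 and 0.0394 and 0.00597 for HSPA9. GRPEL2 did not pass in either (adjusted p = 0.147 and 0.0902). With the trend removed the median was -0.08, 0 of the 35 changed sign and the related genes kept 3 calls in number. No paired analysis was possible because the deposited values pool the libraries, and for the same reason no library could be left out.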

Other observations

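Of the related genes, 4 had no adjusted p in the authors' deposited table. MTX2, a metaxin of the outer membrane, was listed at a mean of 0, and PAM16, a part of the HSPA9 motor, had a mean of 8.85. PAM16 shares its locus with the readthrough gene CORO7-PAM16. TOMM20L and MTX3 had means of 0.621 and 0.693 in the authors' deposited table.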
